A study of Mus musculus with 2 samples.

Results

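The brush border digestive enzymes described here were 9 genes, chosen by name, of the 32285 genes listed in both count tables. They were Sis, Lct, Treh and Mgam, which encode enzymes that cut sugars, Anpep, Dpp4, Enpep and Ace, which encode peptidases, and Alpi, which encodes intestinal alkaline phosphatase. All 9 were listed in both libraries, and all 9 had at least 30 unique molecular identifiers (UMIs) in enterocyte-like cells. The 2 libraries were 10x Genomics 3′ single-cell RNA-seq of live intestinal epithelial cells with EpCAM on their surface, sorted from crypt preparations on day 7 of 2.5% dextran sulfate sodium (DSS), which damages the intestinal epithelium when given in drinking water. One library came from wild type (WT) mice and the other from MG53-TG mice, which carry an MG53 transgene, so every cell came from a DSS-treated animal and there was no library without DSS. MG53 is a membrane repair protein encoded by Trim72, and the transgene overexpresses it throughout the body, not in the epithelium alone. The study describes several animals per genotype for this experiment, but the labels do not say how they were joined into 1 library each, and they give no stretch of gut.

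The brush border is the carpet of microvilli on the lumenal face of absorptive enterocytes, and its membrane carries the enzymes that finish the digestion of starch, sugars and peptides next to the transporters that take up the products. Stem cells at the crypt base give rise to enterocytes that gain these enzymes as they move up the villus, and the set of enzymes also differs along the length of the gut. Sucrase-isomaltase (Sis) is the best known marker of this maturation, lactase (Lct) serves the digestion of milk sugar, and intestinal alkaline phosphatase also removes phosphate from bacterial products such as endotoxin.

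With 1 library per genotype there was no replicate, and no test between genotypes was possible. Levels are summed UMIs of a cell type in CPM, the usual scaling of counts to a fixed library total, here the total of that type, with exact Poisson intervals, ratios carry exact conditional binomial intervals, and shares of cells carry Clopper-Pearson intervals, all at 95% and for counting error alone. Cells kept for the comparison were 6963 from WT with a median of 14035 UMIs and 4941 from MG53-TG with a median of 17950. The limit of 25% mitochondrial (mt-) UMIs removed 33.7% of WT and 46.1% of MG53-TG barcodes that had passed the other limits, and 8 cell barcodes occurred in both libraries. In epithelial cells Trim72 had 0.594 CPM (WT) and 50.8 CPM (MG53-TG), with the higher value in the library labelled MG53-TG. In the epithelial cells Epcam was at 567 and 600 CPM and the leukocyte gene Ptprc at 6.27 and 12.0 CPM, but clusters of T cell-like cells were also present despite the sort (576 WT and 231 MG53-TG cells, Ptprc at 1202 and 1404 CPM). Neither the 9 genes nor the related lists named further on, apart from a few regulators such as Klf4, Creb3l3 and Gata4, entered the clustering or the naming of types, so that their levels by type were not set by the clustering.

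Promoters of 4 members are shown because their transcripts set the patterns described below: Sis differed between libraries in early absorptive-like cells and was present in enteroendocrine-like cells, Lct was low in one cluster rich in Anpep, Enpep and Dpp4, Mgam was, next to Dpp4, raised in several types outside the absorptive lineage, and Alpi had its own pattern among enterocyte clusters. Each is the stretch from 250 bases before the RefSeq start to the base before it (GRCm38.p6), written 5′ to 3′ on the strand of the gene. Capitals mark letters that match, on either strand, one of the motifs searched, and matches can overlap. TTTAT stands for the letters that the intestinal CDX factors bind. AGATAA stands for the letters bound by factors of the GATA family. GTTAAT is a part of the longer site of the hepatocyte nuclear factor HNF1. AAAGTCCA is a site of the hepatocyte nuclear factor HNF4. Sis lies at chr3:72967864-72968113, Lct at chr1:128328319-128328568 and Alpi at chr1:87101607-87101856, all on the minus strand, and Mgam at chr6:40628581-40628830 on the plus strand.
Sis: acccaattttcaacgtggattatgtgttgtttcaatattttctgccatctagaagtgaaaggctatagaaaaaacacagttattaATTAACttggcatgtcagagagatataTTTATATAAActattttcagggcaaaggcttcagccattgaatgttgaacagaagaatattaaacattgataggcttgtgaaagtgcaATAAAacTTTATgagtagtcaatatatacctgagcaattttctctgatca
Lct: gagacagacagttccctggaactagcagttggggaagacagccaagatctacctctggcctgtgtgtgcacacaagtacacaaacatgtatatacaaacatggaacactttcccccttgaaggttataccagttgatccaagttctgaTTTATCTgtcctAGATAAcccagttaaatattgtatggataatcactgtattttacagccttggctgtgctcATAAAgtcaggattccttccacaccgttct
Mgam: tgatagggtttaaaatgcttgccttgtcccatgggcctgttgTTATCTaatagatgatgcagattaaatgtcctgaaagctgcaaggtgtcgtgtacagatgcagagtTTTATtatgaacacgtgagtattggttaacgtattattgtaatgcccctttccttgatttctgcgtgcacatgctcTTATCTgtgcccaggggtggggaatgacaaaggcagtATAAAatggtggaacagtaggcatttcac
Alpi: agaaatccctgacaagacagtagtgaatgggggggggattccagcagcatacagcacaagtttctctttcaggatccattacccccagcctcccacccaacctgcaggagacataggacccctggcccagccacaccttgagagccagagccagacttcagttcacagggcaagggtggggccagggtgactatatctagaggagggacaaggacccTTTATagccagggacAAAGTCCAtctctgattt

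The genes lie on separate stretches of the genome (mm10): Sis at chr3:72888557-72967863, Lct at chr1:128284756-128328318, Mgam at chr6:40628831-40769123 and Alpi at chr1:87098002-87101606, with Alppl2 and Akp3, related phosphatase genes, on either side of Alpi. The Sis window held 4 matches to TTTAT and the 1 match to GTTAAT found in any member. The Lct and Mgam windows each held 2 matches to TTTAT and 2 to AGATAA, and in Lct one of each shared letters. The Alpi window held 1 match to TTTAT and 1 to AAAGTCCA. Over the 10 windows of the 9 genes (Ace has 2), TTTAT occurred in 7, AGATAA in 3, AAAGTCCA in 2 and GTTAAT in 1. Among 32851 mouse promoter windows of the same length these letters occurred in 37.3%, 9.99%, 1.01% and 6.43%. The TTTAT matches of Lct, Mgam, Alpi and Ace that began at bases -30, -29, -33 and -31 lay where a TATA box usually stands, and the letters do not tell these apart. The Anpep window and the second Ace window held no match, which says only that these letters are not there.

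Among the 9 named cell types, all 9 enzymes had their highest level in enterocyte-like cells, in both libraries. An epithelial cluster left without a name, cluster 11, was higher still for Anpep, Dpp4, Enpep and Ace in both libraries. Its Alpi level was 185 CPM in WT, with overlapping intervals, and 242 CPM in MG53-TG, also above the enterocyte-like level. The enterocyte-like cells were 976 WT and 790 MG53-TG cells defined by apolipoprotein, fatty acid binding and related genes. Among the disaccharidases, Sis was at 2508 CPM in WT (2481 to 2536) and 2909 CPM in MG53-TG (2881 to 2937). Lct was at 248 and 222 CPM. Treh, which encodes trehalase, was at 66.4 and 64.0 CPM. Mgam, which encodes maltase-glucoamylase, the partner of sucrase-isomaltase in starch digestion, was at 1368 and 1411 CPM. Sis was slightly higher and Lct slightly lower in MG53-TG, and the intervals of the libraries overlapped for Treh alone among the 4.

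The peptidases were also at similar levels in the libraries. Anpep, aminopeptidase N, was at 1158 CPM in WT and 1168 in MG53-TG. Dpp4, dipeptidyl peptidase 4, which also inactivates incretin hormones, was at 412 and 436 CPM. Enpep, aminopeptidase A, had 637 and 611 CPM, a small difference with WT the higher. Ace, angiotensin-converting enzyme, which trims dipeptides from peptide ends in the gut lumen, had 280 and 232 CPM. Alpi was at 177 CPM in WT and 193 in MG53-TG.

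Cell by cell, after each cell was thinned to 1354 UMIs, Sis was detected in 83.2% of WT and 84.3% of MG53-TG enterocyte-like cells, against 95.9% and 95.6% before thinning. In T cell-like cells, which should lack it, the thinned shares were 1.91% and 2.6%. The thinned shares of the other members in enterocyte-like cells ran from 11.1% for Treh to 82.3% for Mgam in WT and from 12.2% to 78.1% for the same genes in MG53-TG. The median number of members detected in a thinned enterocyte-like cell was 5 in WT and 4 in MG53-TG, and 6 WT and 13 MG53-TG cells had none. Detection of 5 or more members in one thinned cell was seen in 50.1% of WT and 46.3% of MG53-TG cells.

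From stem-like to enterocyte-like cells every member was higher by far more than 1.5-fold, the fold counted as a call here. This held for 9 of 9 members in both libraries, against 22.4% of 11644 genes counted in WT and 24.1% of 11323 in MG53-TG. The fold was 76.9 in WT and 73.9 in MG53-TG for Sis. Lct followed with 53.8 and 53.7, Anpep with 45.8 and 44.2, and Ace with 44.7 and 42.5. Treh, Enpep and Alpi stood between 15.1 and 23.7 in both libraries. Dpp4 (8.34 and 8.33) and Mgam (7.51 and 9.29) had the smallest folds, from stem-like levels of 49.4 and 52.4 CPM for Dpp4 and 182 and 152 CPM for Mgam. The median log2 difference of the members was 4.57 in WT and 4.25 in MG53-TG, next to -0.39 and -0.33 over all genes counted.

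**Figure D1:**
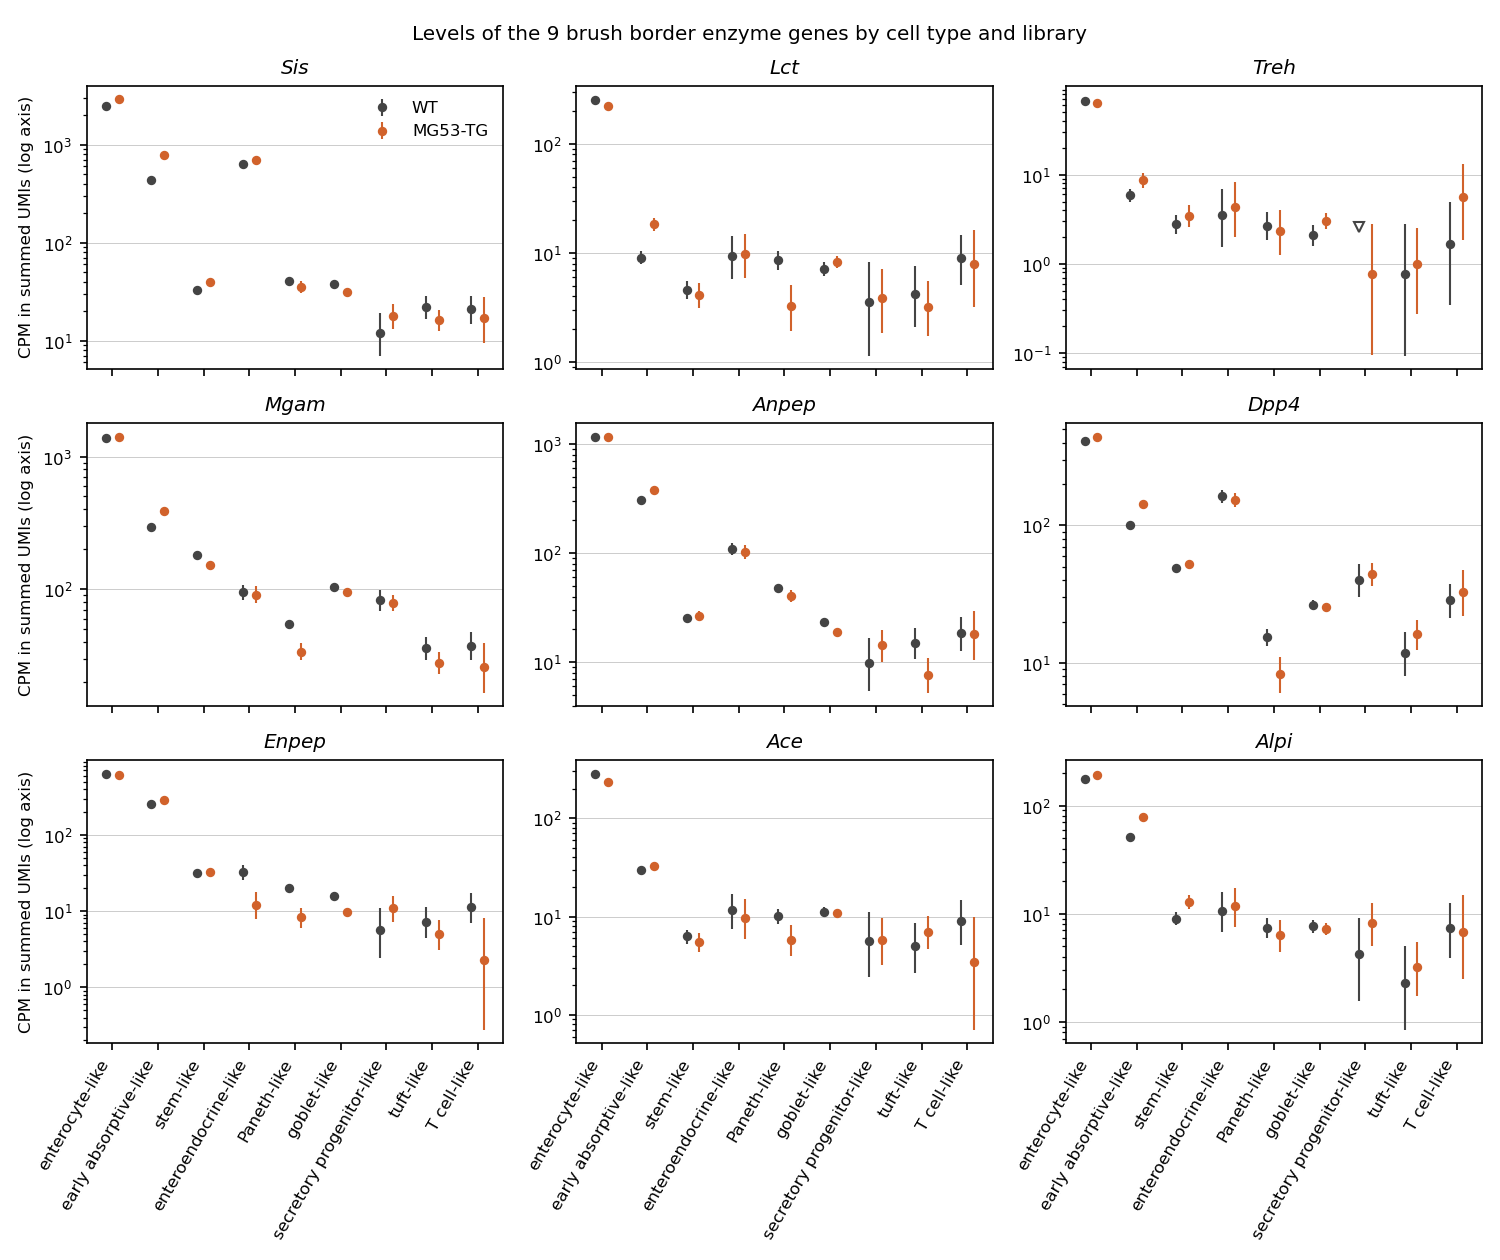
Level of each enzyme gene in CPM (log axis) in 9 marker-defined cell types, WT in grey and MG53-TG in orange, with 95% Poisson intervals; the open triangle in the Treh panel is the upper limit of a type with 0 UMIs. Of these types, enterocyte-like cells have the highest level of all 9 genes, and Sis and Dpp4 are also high in enteroendocrine-like cells.

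Early absorptive-like cells, the 1215 WT and 527 MG53-TG cells with genes of the villus bottom such as the gasdermin C genes, came next in the order for most members. The 10 markers behind the name summed to 47980 CPM in WT and 31029 in MG53-TG there, against 11713 and 6155 CPM in stem-like cells. They were higher still in enterocyte-like cells (78537 and 62316 CPM), so the list sets these cells apart from stem-like cells and not from enterocyte-like ones, whose 12 markers were at 19002 and 28060 CPM here against 68762 and 72944 CPM. In WT they were second for Treh, Mgam, Anpep, Enpep, Ace and Alpi, and in MG53-TG for these and also for Sis and Lct. Dpp4 in both libraries, and Sis and Lct in WT, were second in enteroendocrine-like cells. The intervals of these 2 types overlapped for Lct and Treh in WT and for Treh and Dpp4 in MG53-TG. Below these types the neighbours in the order mostly had overlapping intervals, which for Treh held for 7 of 8 neighbouring pairs in each library and for Sis for 3 pairs in WT and 4 in MG53-TG. For Lct, Ace and Alpi it held for 6 of the 8 pairs in each library, so most of the lower order was not resolved for these genes.

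Enterocyte-like cells of MG53-TG and WT had similar levels of all 9 enzymes. The median log2 ratio of MG53-TG over WT was 0.01, next to a median of 0.05 over all genes counted, and 0 of 9 members passed 1.5-fold. Of 10472 genes, 3.6% were at least 1.5-fold higher in MG53-TG and 3.34% lower. The largest ratios were 0.21 for Sis (0.19 to 0.23) and -0.27 for Ace (-0.34 to -0.20). By their counting intervals Sis, Mgam, Dpp4 and Alpi were higher, Lct, Enpep and Ace were lower, and Treh and Anpep included 0. Median of ratios scaling takes the same 0.05 from the ratio of every gene, which leaves Mgam at -0.0099, and Dpp4 turned with the mean of single-cell CPM (-0.05), so no direction is given for these 2 genes.

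Over all epithelial cells (6119 WT and 4606 MG53-TG), where the mix of types also enters, the median ratio of the members was 0.13, next to 0.09 over all genes, and 0 of 9 passed 1.5-fold (6.8% of 14656 genes were higher to this extent and 3.0% lower). This median was -0.11 when single-cell CPM were averaged, so no direction is given. In stem-like cells 0 of 9 passed 1.5-fold, where 3.39% of 11665 genes were higher to this extent and 2.27% lower.

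Clusters 2 and 3 made up the enterocyte-like type, and Sis was the member whose ratio differed most between them. Cluster 2 (508 WT and 441 MG53-TG cells) was led by Sult6b2 and Gsta1, and there Sis was at 2493 CPM in WT and 2620 in MG53-TG. Cluster 3 (468 and 349 cells) held 4 of 6 ileal markers and 5 villus tip markers, and there Sis was at 2557 CPM in WT and 3831 in MG53-TG, a log2 ratio of 0.58 (0.54 to 0.62). The other 8 members had log2 ratios between -0.24 (Lct) and 0.11 (Dpp4) in cluster 3. In that cluster 5.93% of 8142 genes were at least 1.5-fold higher in MG53-TG, 5.47% were lower, 0 of 9 members were past the fold, and Sis stood just under it. In cluster 2, where 4.05% of 10000 genes were higher to this extent and 3.31% lower, 0 of 9 members were past it either.

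Early absorptive-like cells gave a different picture at the 25% limit on mt- UMIs, with all 9 members above WT in MG53-TG. Sis was at 434 CPM in WT and 793 in MG53-TG (log2 ratio 0.87, 0.83 to 0.91). Lct was at 9.02 and 18.3 CPM (1.02, 0.75 to 1.30), and Alpi at 50.8 and 78.3 CPM (0.62, 0.50 to 0.75). These 3 genes were past 1.5-fold, where 4.27% of 11184 genes were higher to this extent in MG53-TG and 3.42% lower. The median of the 9 was 0.51, next to 0.05 over all genes, and the interval for Ace alone included 0. How many of all genes had intervals above 0 in these cells was not counted. The enterocyte markers were also higher in MG53-TG in these cells, and their part in the ratios was not tested. At the 50% limit a Fabp6-led cluster was named enterocyte-like, and the remaining early absorptive-like cells differed less: Sis was 1.22-fold and Lct 1.14-fold higher, the latter with an interval that included 0, and Alpi (1.59-fold) was the member still past 1.5-fold, where 3.07% of 11062 genes were higher to this extent and 4.42% lower. Mgam (log2 ratio -0.11, -0.17 to -0.04) and Ace (-0.25, -0.49 to -0.01) were then below WT, and the intervals of Lct, Treh and Enpep included 0. The clusters in this sum differed. Sis was 1.24-fold and 2.47-fold higher in clusters 4 and 17 of that clustering, but at 0.70-fold of WT in cluster 22.

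Cluster 13, 1 of the 3 clusters of this type, was led by the ileal bile acid binding gene Fabp6, and the intervals of the 4 sugar enzymes and of Enpep lay above 0 with it and not without it. Alpi (0.61), Dpp4 (0.33) and Anpep (0.21) kept log2 ratios with intervals above 0 also without it. It held 225 WT and 114 MG53-TG cells, or 18.5% (16.4 to 20.8) and 21.6% (18.2 to 25.4) of the early absorptive-like cells. In cluster 13 Sis was at 1189 CPM in WT and 2833 in MG53-TG, and Lct at 23.3 and 71.3 CPM. Mgam was at 628 and 1158 CPM, and Treh at 10.4 and 21.6 CPM. Alpi had 60.3 and 93.6 CPM. These 5 were past 1.5-fold, where 7.43% of 8552 genes were higher to this extent and 5.64% lower, and the intervals of the 4 peptidases also lay above 0 (log2 ratios of 0.23 to 0.53). At the 50% limit a Fabp6-led cluster of 513 WT and 351 MG53-TG cells, cluster 7 of that clustering, again had the intervals of all 9 members above 0. The share of all genes with such intervals was not counted in cluster 13 or in this cluster. Sis (2.13-fold) and Mgam (1.56-fold) were past 1.5-fold there, where 5.58% of 9264 genes were higher to this extent and 8.48% lower, and Lct (1.33-fold), Treh (1.44-fold) and the peptidase Dpp4 (1.43-fold) were not.

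In the other clusters of early absorptive-like cells the members went both ways. In cluster 7, 0 of 9 were past 1.5-fold (4.22% of 9930 genes were higher and 3.25% lower), and in cluster 8, 1 of 8 was higher (Alpi, 20.7 and 35.1 CPM) and 1 lower (Ace, 9.08 and 5.59 CPM), where 4.95% of 9887 genes were higher and 4.45% lower.

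Without cluster 13, which was left out after its values had been seen, no common direction remained. Sis was then at 266 CPM in WT and 267 in MG53-TG, the median ratio was 0.05, and the intervals lay above 0 for 3 members (Anpep, Dpp4 and Alpi), below 0 for 2 (Mgam and Ace) and across 0 for 4. Alpi was the member that stayed past 1.5-fold (48.7 and 74.3 CPM), where 3.62% of 10880 genes were higher to this extent and 3.69% lower. Marker genes also moved with the library inside cluster 13. The 12 enterocyte markers summed to 20989 CPM in WT and 35762 in MG53-TG, and the 7 villus tip markers to 327 and 463 CPM. The 10 early absorptive markers summed to 90264 and 61942 CPM, and Fabp6, the leading gene of the cluster, was at 5828 and 2993 CPM. The bile acid uptake gene Slc10a2 was nearly level, at 118 and 123 CPM. Whether the cluster 13 cells of the libraries were alike in maturity and place, and the part of this in the ratios, was not tested.

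**Figure D2:**
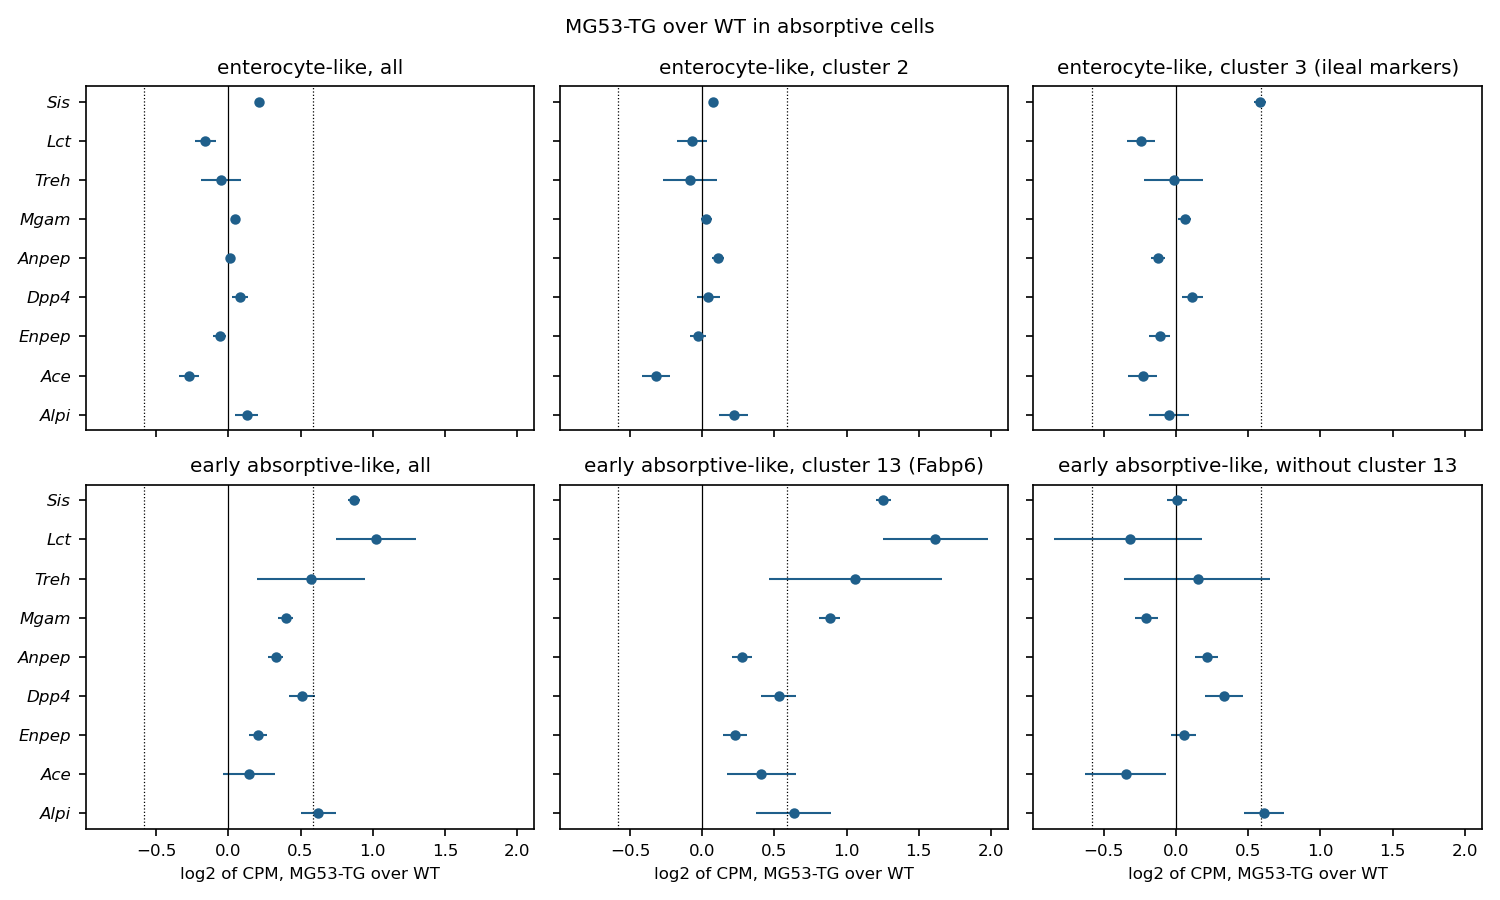
Log2 of CPM in MG53-TG over WT for each enzyme gene in 6 sets of absorptive cells, with exact 95% intervals for counting error; the solid line is no difference and the dotted lines are 1.5-fold. The points gather around 0 in enterocyte-like cells, lie right of 0 in early absorptive-like cells and cluster 13, and return to both sides of 0 without cluster 13.

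The enterocyte-like clusters differed in their levels of the members. In cluster 3, every member was higher than in cluster 2 in both libraries, apart from Sis in WT, whose interval included 0 (log2 difference 0.04). Of all genes, 33.8% in WT and 30.2% in MG53-TG had an interval above 0 in this comparison, and 26.2% and 27.5% had one below 0. Lct had 572 CPM in cluster 3 and 147 CPM in cluster 2 of WT, and 483 and 140 CPM in MG53-TG. Dpp4 differed by 3.33-fold in WT and 3.49-fold in MG53-TG, and Ace by 3.08-fold and 3.27-fold. These differences depended on which cells were taken as ileal. At the 50% limit the ileal cells were the Fabp6-led cluster 7 and cluster 16 of that clustering, and in WT Sis (0.82-fold), Lct (0.64-fold), Treh (0.59-fold), Mgam (0.93-fold), Ace (0.94-fold) and Alpi (0.67-fold) were then lower in them than in the other enterocyte-like cells. In MG53-TG, Treh (0.81-fold) and Alpi (0.66-fold) were lower and Lct (1.03-fold) did not differ beyond its interval. Sis (1.66-fold), Mgam (1.23-fold) and Ace (1.21-fold) were higher in the ileal cells of MG53-TG, opposite to WT. Dpp4 fell to 1.52-fold and 1.85-fold, while Anpep (2.05-fold and 2.09-fold) and Enpep (1.89-fold and 1.83-fold) stayed higher in both libraries. When enterocyte-like cells were divided by a UMI of an ileal marker after thinning, Lct was 1.15-fold and 1.30-fold, Ace 1.26-fold and 1.31-fold and Dpp4 1.53-fold and 1.45-fold higher. Alpi was then lower in MG53-TG (0.92-fold), and the intervals of Treh included 0 in both libraries, as those of Alpi did with a minimum of 500 UMIs per cell. Cluster 3 cells were also shallower, with a median of 5005 UMIs against 20796, and their median mt- share was 13.1% against 8.83%. Their summed markers were also higher, at 1840 and 1827 CPM against 513 and 500.1 for the villus tip, 1590 and 1456 CPM against 497 and 539 for the ileum, and 95443 and 92248 CPM against 60447 and 66887 for enterocytes. The part of these in the differences was not tested.

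A further epithelial cluster, cluster 11 (254 WT and 100 MG53-TG cells), had 5 of 6 ileal markers and was left without a name because its cells were shallow (median 3682.5 UMIs). Slc10a2 was at 1510 CPM in WT and 1109 in MG53-TG there, and Trim72 at 0 and 152 CPM. Anpep stood at 4259 CPM in WT and 4122 in MG53-TG, 4.97-fold and 4.47-fold over cluster 2. Enpep was at 1910 and 1250 CPM and Dpp4 at 1058 and 888 CPM, both above cluster 2 in each library. Lct by contrast had 16.5 and 19.0 CPM, against 147 and 140 CPM in cluster 2, and Sis had 1235 and 1034 CPM, less than the 2493 and 2620 CPM of cluster 2. Ace was at 366 and 301 CPM, against 187 and 150.2 CPM, Mgam differed by 1.71-fold and 1.34-fold and Alpi by 1.26-fold and 1.42-fold. All 4 peptidases, Mgam and Alpi were thus higher, and Lct and Sis lower, in this cluster than in cluster 2 in both libraries, while the intervals of Treh included 0. Of all genes, 35.7% (WT) and 26.6% (MG53-TG) had an interval above 0 in this comparison, and 25.5% and 24.3% had one below 0. Between the libraries, 1 of 8 members in cluster 11 was at least 1.5-fold higher in MG53-TG (Treh) and 1 lower (Enpep), where 9.14% of 5068 genes were higher and 15.1% lower. This comparison was chosen after the values had been seen.

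More enterocyte-like cells were kept when up to 50% mt- UMIs were allowed, 3242 from WT and 3475 from MG53-TG in 8 clusters, and the members then differed widely among clusters. Cluster numbers here are those of this second clustering. Cluster 12 (199 and 332 cells), which held 5 proximal and 3 villus tip markers and was led by genes of iron and calcium handling such as Slc40a1, Cybrd1 and S100g, had Alpi at 1095 CPM in WT and 1031 in MG53-TG. In the other 7 clusters Alpi was between 89.1 and 528 CPM. The same cluster had the lowest Anpep (358 and 395 CPM), Dpp4 (200 and 213 CPM), Enpep (213 and 209 CPM) and Ace (170.3 and 160.0 CPM). The highest Alpi and the lowest levels of all 4 peptidases thus fell in the same cluster, in both libraries. For Ace in MG53-TG the lowest cluster was not resolved, since the interval of cluster 10 (172 CPM) overlapped.

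Cluster 13 of this second clustering (228 and 291 cells) had 7 villus tip markers, and Sis was lowest there, at 385 CPM in WT and 452 in MG53-TG. Alpi was second highest in it, at 527 and 528 CPM. Lct was highest in cluster 3, with 643 and 527 CPM, where Treh, Mgam and Ace also had their highest levels in both libraries. For Treh in WT this was not resolved, with 156 CPM in cluster 3 and 153 CPM in cluster 13. Cluster 16 (268 and 101 cells) was led by Saa1 and Slc10a2, as cluster 11 of the first clustering was. Anpep was at 4371 and 4030 CPM and Lct at 22.0 and 7.60 CPM, a 29.2-fold range of Lct between the highest and lowest cluster in WT. The MG53-TG value rested on 4 UMIs (2.07 to 19.4 CPM), so its range was not well determined. Mgam was the evenest member, with a 2.04-fold range in WT and 2.22-fold in MG53-TG. By value, and with Treh in WT unresolved, the highest cluster was the same in both libraries for every member but Sis. Sis was highest in cluster 10 in WT (2805 CPM) and in the Fabp6-bearing cluster 7 in MG53-TG (3803 CPM, with 1789 CPM in WT). Clusters 2, 3, 5, 12 and 13 had a median mt- share of 34.2% to 43.7%, and the part of this share in the levels was not tested.

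**Figure D3:**
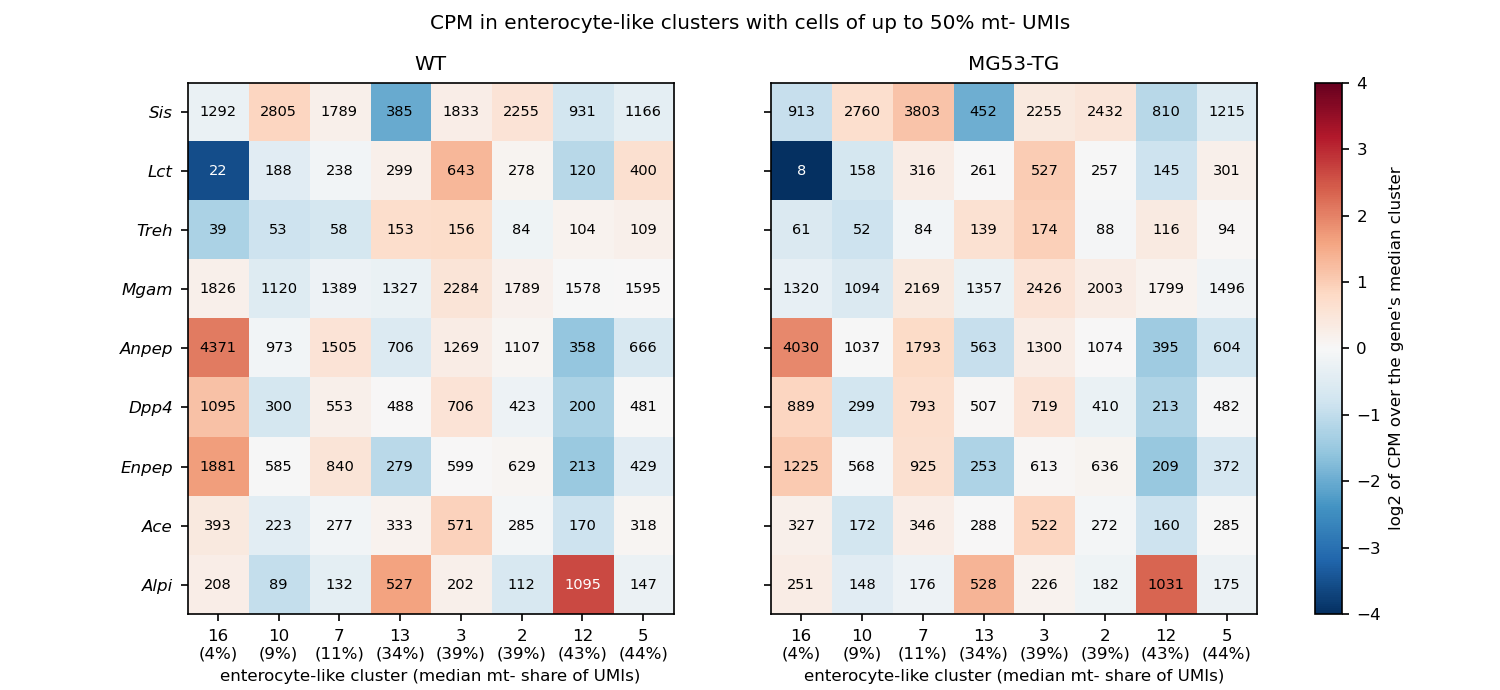
CPM of each enzyme gene (number in each cell of the grid) in 8 enterocyte-like clusters, ordered by their median mt- share of UMIs, in the 2 libraries; colour is log2 of CPM over the median cluster of that gene. Lct is lowest and Anpep and Enpep are highest in cluster 16, and Alpi is highest in cluster 12 in both libraries.

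Cells of both libraries together were divided into 3 ranges of equal cell number along a score from villus bottom to villus tip genes. In both libraries 9 of 9 members were higher in the highest range than in the lowest, by intervals above 0, as were 19.1% of 10082 genes. Lct was at 53.4 CPM in the lowest range and 212 CPM in the highest in WT, and at 72.9 and 263 CPM in MG53-TG. Sis differed least, with 1172 and 1308 CPM in WT and 1857 and 2237 CPM in MG53-TG. Of the 697 WT cells in the highest range, 385 came from cluster 3, and of the 477 MG53-TG cells, 284. When the ileal enterocyte-like cluster was left out, the count was 1 of 9. That cluster also had the higher level of villus tip markers, so its removal also took away most cells at that end of the score. At the 50% limit Sis turned in MG53-TG, from 1889 CPM in the lowest range to 1504 CPM in the highest, and Enpep in MG53-TG differed by 1.06-fold. Median depth was also lower in the highest range, with 7254 UMIs against 18891 in WT and 9499 against 23834.5 in MG53-TG.

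Outside the absorptive lineage, Sis and Dpp4 stood out in enteroendocrine-like cells, the hormone-secreting cells of the epithelium (285 WT and 181 MG53-TG cells). Sis was at 630 CPM in WT (597 to 663) and 692 CPM in MG53-TG (657 to 729), or 25.1% and 23.8% of its enterocyte-like level. Dpp4 was at 163 and 153 CPM, or 39.5% and 35.1%. The remaining 7 members were at 1.99% to 9.43% of their enterocyte-like level over both libraries. The 12 enterocyte markers used for naming were at 3.02% to 16.0% with a median of 6.31% in WT, and at 2.95% to 13.2% with a median of 6.69% in MG53-TG, so Sis and Dpp4 lay above every one of them. Both lay above every marker also in cluster 15 (166 WT and 129 MG53-TG cells). In cluster 17 (119 and 52 cells) the highest marker was at 36.5% and 29.2%, with Sis below it at 21.8% and 21.2%, and Dpp4 at 37.5% in WT and 24.8% in MG53-TG. Sis was detected in 43.5% of thinned WT cells (37.7 to 49.5) and 51.4% of thinned MG53-TG cells (43.9 to 58.9), and in 66.0% and 76.2% before thinning.

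RNA free of cells was measured in 1434027 WT barcodes with fewer than 100 UMIs, and all members were present there (Sis at 468 CPM). In T cell-like cells the members were at 4.27% to 15.7% of that level in WT and at 1.23% to 18.1% in MG53-TG, Dpp4 being the highest in both. In enteroendocrine-like cells Sis was at 135% of the free level in WT and 148% in MG53-TG and Dpp4 at 89.3% and 84.1%, whereas Lct was at 8.21% and 8.57% and Alpi at 9.91% and 10.9%. Anpep lay between these, at 35.7% and 33.6%, and the remaining members were at 17.5% or less. Free RNA of the MG53-TG library was not measured, since its table began at 500 UMIs per barcode.

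Enteroendocrine-like cells were then divided by the hormone gene with most UMIs in the thinned cell, a division chosen after the Sis value had been seen. Sis was at 1148 CPM in WT and 1014 in MG53-TG cells led by Cck, cholecystokinin. In cells led by Sct, secretin, it was at 1065 and 780 CPM. In WT the intervals of these 2 groups overlapped each other and that of the 12 cells led by Gcg, proglucagon (882 CPM), so the highest group was not resolved. In cells led by Gip, the incretin of the upper gut, Sis was at 603 and 606 CPM. Cells led by Tph1, the enzyme of serotonin synthesis, had 366 and 499 CPM. In cells led by Sst, somatostatin, Sis was at 47.4 CPM in WT (12 UMIs in 27 cells) and 4.44 CPM in MG53-TG (1 UMI in 16 cells), with intervals that overlapped those of T cell-like cells (20.8 and 17.04 CPM). Dpp4 did not follow this order, being at 201 and 253 CPM in the Sst cells, next to 220 and 244 CPM in the Gip cells. Between the libraries, Sis differed by a log2 ratio of 0.14 (0.03 to 0.24) in enteroendocrine-like cells, but its interval included 0 with a minimum of 500 UMIs (0.10) and with the members among the clustering genes (0.09), and the ratio was 0.36 at the 50% limit. Dpp4 differed by -0.09 (-0.31 to 0.13). Enpep, at 32.4 CPM in WT and 12.2 in MG53-TG, was the one of 8 members with enough UMIs that was past 1.5-fold, where 6.09% of 9910 genes were lower to this extent and 4.63% higher. At the 50% limit Enpep was at 36.0 and 27.8 CPM, under that fold and with an interval that included 0.

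**Figure D4:**
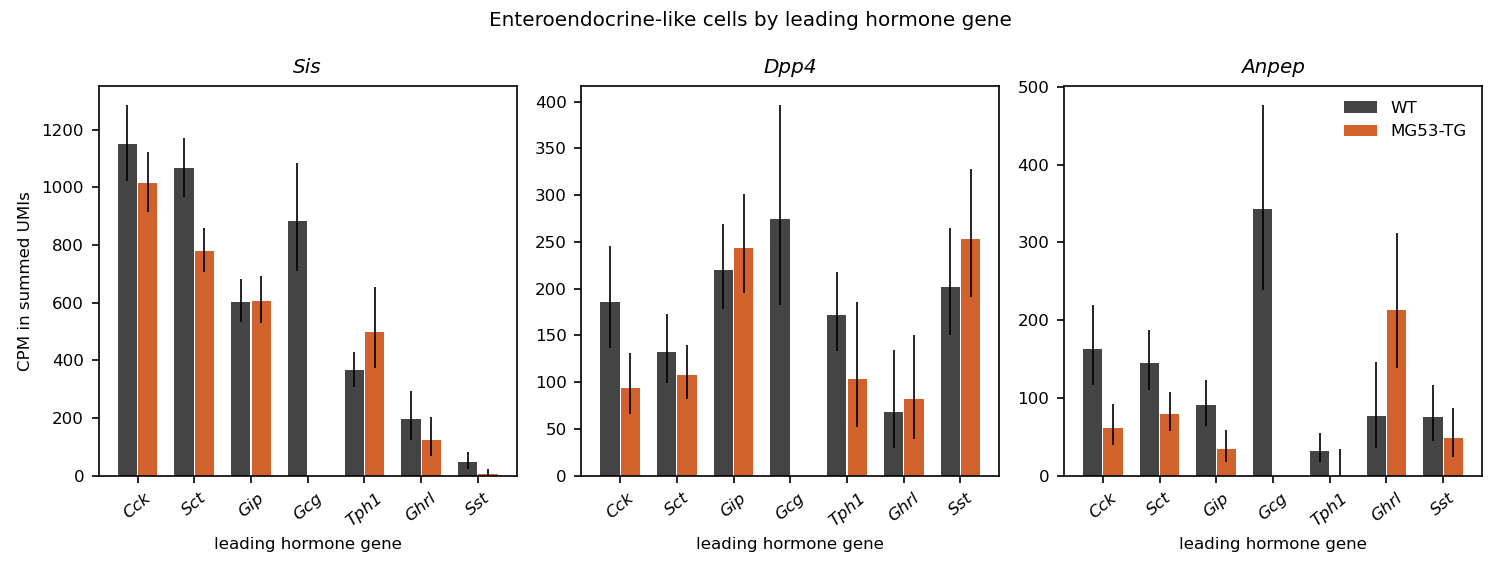
CPM of Sis, Dpp4 and Anpep in enteroendocrine-like cells grouped by leading hormone gene, WT in grey and MG53-TG in orange, with 95% Poisson intervals; groups under 10 cells are not drawn (Gcg in MG53-TG) and Anpep in Tph1-led MG53-TG cells is 0. Sis is high in Cck-led cells (1148 and 1014 CPM) and lowest in Sst-led cells (47.4 and 4.44 CPM), and Dpp4 does not follow this order.

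Mgam and Dpp4 were the members at the highest percentages of the free level in several other types. In stem-like cells Mgam was at 182 CPM in WT and 152 in MG53-TG, which is 32.6% and 27.1% of the free level, against a median over members of 8.26% and 8.74%. In goblet-like cells, which secrete mucus, Mgam was at 104 and 95.2 CPM, or 18.6% and 17% of the free level, against medians of 8.01% and 7.31%. Dpp4, also known as CD26 on lymphocytes, was at 28.7 and 33.0 CPM in T cell-like cells, or 15.7% and 18.1%, against medians of 6.73% and 5.95%. In Paneth-like cells, which secrete antimicrobial peptides, Anpep was highest, at 15.7% and 13.2%, while Mgam (9.73% and 6.05%) and Dpp4 (8.48% and 4.55%) lay near the medians of 8.76% and 5.88%. In tuft-like cells all 9 were at 8.87% or less of the free level in both libraries. One small goblet-like cluster, cluster 20 (79 and 70 cells), with a median mt- share of 13.7%, held the members at raised levels, with Sis at 294 and 348 CPM and Mgam at 436 and 479 CPM.

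**Figure D5:**
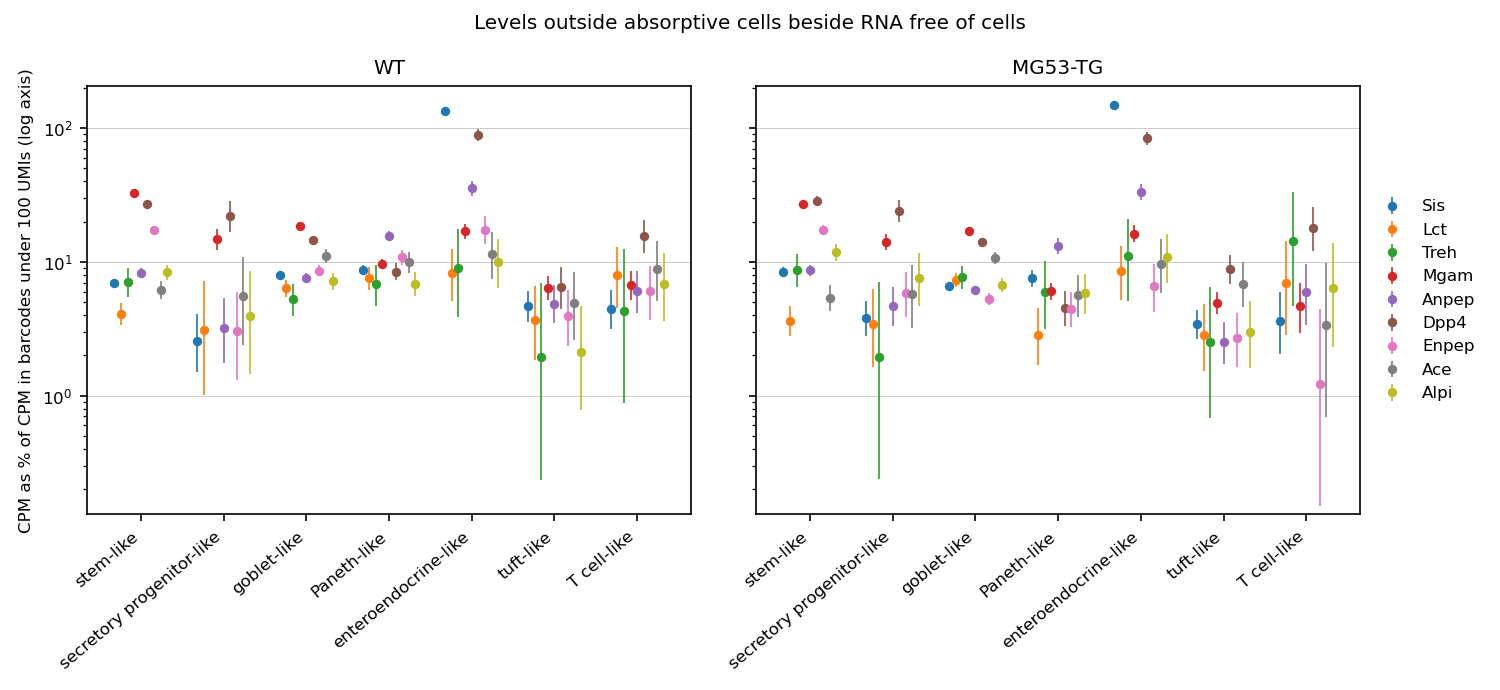
CPM of each enzyme gene in types outside the absorptive lineage as a percentage (log axis) of its CPM in WT barcodes under 100 UMIs, with 95% intervals; members with 0 UMIs are not drawn. Sis and Dpp4 in enteroendocrine-like cells and Mgam and Dpp4 in stem-like cells lie above the other members.

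Few related genes of the brush border were past 1.5-fold between the genotypes in enterocyte-like cells, as few genes were overall. Of 15 other hydrolases with enough UMIs, 0 were at least 1.5-fold higher in MG53-TG and 1 was lower, and of 15 genes of sugar and peptide uptake, 19 structural genes and 22 regulators, 0 were past 1.5-fold in either direction, where 6.94% of all 10472 genes were past it. At the 50% limit, 7 of 71 of these genes were past it, where 9.09% of all genes were, and with no minimum count 0 of 74, where 3.3% were. The medians were -0.15, -0.07, -0.01 and 0.14, next to 0.05 over all genes. Among hydrolases the highest ratios were those of Enpp7 (0.22), which digests sphingomyelin, Mme (0.19) and Mep1b (0.11), and the lowest those of Akp3 (-0.59), a neighbour of Alpi on chromosome 1 and itself a phosphatase gene, Cpm (-0.41) and Tmprss15 (-0.28), which encodes enteropeptidase. The intervals of the lowest 3 included 0, and Akp3 had only 59 (WT) and 42 (MG53-TG) UMIs. From stem-like to enterocyte-like cells, 15 of 15 of these hydrolases, 14 of 15 uptake genes and 17 (WT) or 18 (MG53-TG) of 19 structural genes were at least 1.5-fold higher, as the members were. Of 23 regulators 7 were higher and 4 lower in each library. Over all genes, 22.4% (WT) and 24.1% (MG53-TG) were higher to this extent, and 44.0% and 42.7% were lower.

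The uptake genes with the highest ratios were Slc5a1 (0.32), the sodium-glucose transporter SGLT1, Slc3a1 (0.21) and Slc7a7 (0.09), and those with the lowest were Slc7a8 (-0.39), Slc2a5 (-0.36), the fructose transporter, and Slc15a1 (-0.30), the peptide transporter PEPT1. Slc5a1 was at 1079 CPM in WT and 1349 in MG53-TG, and Slc15a1 at 219 and 178 CPM. Of the structural genes Baiap2l1 (0.47), Pls1 (0.16) and Eps8 (0.14) were highest and Epb41l3 (-0.13), Cobl (-0.12) and Ezr (-0.09) lowest. Among the regulators, Foxa3 (0.54), Pdx1 (0.45) and Hnf4g (0.45) were highest and Smad4 (-0.45) was lowest. Hnf4g and Smad4 encode factors known to act in enterocyte gene expression, and were at 194 and 264 CPM and at 74.6 and 54.6 CPM. The intervals of Slc7a7 and Foxa3 included 0.

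Genes with the pattern most like each member were sought by Pearson correlation of log2(CPM + 1) over the 18 sums of type and library, among 12038 genes, as a description with no test. The sums of one library share depth and free RNA. Sis was most like Ceacam20 (r 0.985), Fam151a (0.978) and Dcst1 (0.977). Lct was most like Apoa4 (0.987), which encodes an apolipoprotein of fat absorption, Pmp22 (0.984) and Bst1 (0.982). Treh was most like Apoa4 (0.959), Slc30a10 (0.958) and Gda (0.957), and Mgam most like Pfkfb4 (0.983), Btnl2 (0.979) and Dgat1 (0.974), the last an enzyme of triglyceride synthesis. Apoa4 was shared by 2 sugar enzymes, and it was among the markers that defined the enterocyte-like type.

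Among the genes most like Anpep were Rbp2 (0.980), which encodes a retinol binding protein, and Naaladl1 (0.969), itself a peptidase gene of the brush border. Dpp4 was most like Slc16a10 (0.969), Amn (0.964) and Gm42941 (0.957). Enpep was most like Apol10a (0.986), Slc51a (0.982), which encodes a subunit of the bile acid exporter, and Ces2e (0.978). Ace was most like Gm11127 (0.975), Unc93a2 (0.971) and Apoa1 (0.971), and Alpi most like Dpep1 (0.982), Gda (0.979) and Maf (0.972). Rbp2 and Apoa1 were, like Apoa4, among the markers that defined the enterocyte-like type, and Slc51a was among the ileal markers. Within the members the closest pair was Sis and Anpep (0.961) and the least close was Treh and Dpp4 (0.778). Dpp4 had the 4 lowest of the values between members, with Treh, Ace, Lct and Enpep.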

How the data were processed

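Single-cell RNA-seq of 1 WT and 1 MG53-TG library was analysed from the deposited UMI counts per gene and barcode, which the authors made with Cell Ranger 4 (WT) and 6.0.1 (MG53-TG), per the file headers, on mm10, with Seurat also named in the submitters' processing notes. Strand and multimapping settings are not given in the sources used here. The WT table listed 2005718 barcodes down to 1 UMI (158455748 UMIs) and the MG53-TG one listed 12361 barcodes of at least 500 UMIs (128227881 UMIs), so pipeline version and barcode filter cannot be told apart from genotype. Barcodes with at least 1354 UMIs, 200 genes and at most 25% mt- UMIs were kept. Scrublet scores (as run in scanpy 1.11.5) were ranked per library and the highest were removed, 438 WT and 212 MG53-TG barcodes, at a fixed expected doublet rate that grows with the number of cells (5.92% and 4.11%), since the automatic threshold marked 1 and 2.

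Cells of both libraries were clustered together without batch integration (2000 variable genes, 30 principal components, 15 neighbours, Leiden resolution 1, leidenalg 0.10.2) without the members and related lists, apart from a few regulators such as Klf4, Creb3l3 and Gata4, and clusters of at least 50 cells were named from marker lists. Several clusterings were looked at, and the 50-cell minimum and the choice of ileal over colonocyte markers were set after clusters had been seen. Comparisons of clusters 11 and 13, early absorptive-like cells without cluster 13, the clusters at 50% mt- UMIs and the hormone groups were also chosen after values were seen. The members and lists were chosen with earlier results of these data known.

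UMIs were summed per type and library. Genes with at least 30 UMIs in both libraries together were counted, and a call was a difference of at least 1.5-fold. Cells were thinned to 1354 UMIs for shares of cells. The text names all members, the 3 highest and 3 lowest ratios of each related list, and the 3 genes most correlated with each member (at least 200 UMIs), except for a few genes that are not reported here. Promoters came from RefSeq (GRCm38.p6), and all 9 members matched. The ratio and interval code was tested on simulated data. Alternatives covered cell filters, clustering, scaling, weighting and free RNA.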

Additional observations from a re-analysis of the deposited data

Results flagged for a closer look

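For 6 members the ratio of MG53-TG over WT had opposite signs in different cell types, each with a counting interval that excluded 0, and the difference between types was not tested. Of 14961 genes with at least 30 UMIs over the 9 types, 13% met the same rule, and of the 6859 genes with at least as many UMIs as the lowest member (2349), 22.4% did. The log2 ratio in early absorptive-like cells was 0.87 for Sis, 1.02 for Lct, 0.40 for Mgam, 0.33 for Anpep, 0.51 for Dpp4 and 0.21 for Enpep. The ratio was -0.26 for Sis in goblet-like cells. In Paneth-like cells it was -1.40 for Lct, -0.68 for Mgam and -0.90 for Dpp4. It was -0.95 for Anpep in tuft-like cells and -2.31 for Enpep in T cell-like cells, where MG53-TG had 2 UMIs of Enpep. These negative ratios, the lowest of each member, came from types with low levels of the members. Not all negative ratios did. The intervals of Lct and Enpep also lay below 0 in enterocyte-like cells, where the members were highest. That of Mgam lay below 0 in stem-like cells, at 32.6% (WT) and 27.1% (MG53-TG) of the WT free level. As a percentage of the level in WT free RNA, Sis was at 8.01% (WT) and 6.67% (MG53-TG) in goblet-like cells. In Paneth-like cells Lct was at 7.53% and 2.86%, Mgam at 9.73% and 6.05%, and Dpp4 at 8.48% and 4.55%. Anpep in tuft-like cells was at 4.88% and 2.52%, and Enpep in T cell-like cells at 6.07% and 1.23%. The 9 members were at 4.27% to 15.7% (WT) and 1.23% to 18.1% (MG53-TG) in T cell-like cells, so no expression is read from these low levels, and free RNA of MG53-TG was not measured. The positive ratios also depended on the cells taken: Mgam was at -0.21 (-0.28 to -0.13) without cluster 13 and -0.11 (-0.17 to -0.04) at 50% mt- UMIs, and Lct at -0.32 and 0.19, both with intervals that included 0. The intervals of Sis and Enpep also included 0 without cluster 13. In early absorptive-like cells the positive ratios of Sis, Lct, Mgam and Enpep were thus not kept without that cluster. For Sis and Mgam the opposite signs did not need it. Their intervals also lay above 0 in enterocyte-like cells, at 0.21 (0.19 to 0.23) for Sis and 0.044 (0.015 to 0.074) for Mgam. The sign of Mgam there depended on the scaling.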

How the results depend on the processing

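Among named types, all 9 members stayed highest in enterocyte-like cells under each of the 5 alternatives run for this result. The median ratio of the members in enterocyte-like cells, 0.01, was 0.0783 with the members among the clustering genes, -0.041 with median of ratios scaling, -0.0475 with the mean of single-cell CPM and -0.0355 after free RNA was taken from WT. In epithelial cells the median, 0.13, was 0.33 at 50% mt- UMIs, 0.0361 with median of ratios scaling and -0.11 with the mean of single-cell CPM. The count of members lower in ileal cells in both libraries, 0, was 2 at 50% mt- UMIs and 2 with cluster 11, an alternative added after the data were seen. The count higher along the villus score in both libraries, 9, was 1 without the ileal cluster. Of the related genes, 1 of 71 was past the fold (6.94% of all genes), 0 of 74 with no minimum count (3.3%) and 7 of 71 at 50% mt- UMIs (9.09%). The cause was not tested for any of these. Among 144 values of single members under alternatives, 127 kept their sign. Those that did not were values of Treh and Anpep, each with a main interval that included 0 (in enterocyte-like cells Treh 0.228 and Anpep -0.12 at 50% mt- UMIs), and 7 of members whose main interval excluded 0: in enterocyte-like cells Mgam (-0.0099, median of ratios, which takes 0.0541 from every gene) and Dpp4 (-0.0475, mean of single-cell CPM), and in epithelial cells Enpep (0.0721) and Ace (0.27) at 50% mt- UMIs and Lct (-0.0507), Mgam (-0.11) and Dpp4 (-0.22) with the mean of single-cell CPM. At Leiden resolution 2 no cluster was named as ileal enterocyte-like, so that setting gave no ileal value. No paired analysis was possible because each genotype had 1 library, which also left no replicate to leave out.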
